A study of Mus musculus with 12 samples.

Results

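Treg-like cells that transcribe a deleted Foxp3 gene were compared between lung and spleen, in the 3 lung and the 3 spleen libraries labelled ∆Foxp3, 6 of the 12 libraries of the study. The libraries were chosen by their labels alone, and every expressed gene was examined. Lung libraries held more RNA of 4 of 22 heat shock genes (Hspa1a, Hspa1b and Dnajb1 among them), of 9 of 31 early response genes (such as Fosl2, Junb and Klf6), of 3 of 25 lipid genes (Dgat1, Hilpda and Plin2) and of single genes such as Rgs2, Tnfaip3 and Dusp4. Spleen libraries held more RNA of 8 of 16 macrophage markers, of which Slc40a1 alone kept its call whichever library was left out. Over all genes tested, 0.549% were called higher and 0.173% lower in lung. Of the 9 early response genes only Fosl2, Klf6, Gadd45b and Btg2 kept the call whichever library was left out, and Junb did not.

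Regulatory T cells (Treg) are a suppressive branch of the CD4 T cells, and Foxp3 is their lineage-defining transcription factor. Male mice without functional Foxp3 develop severe inflammation of many organs, the lung among them, while cells that would have become Treg still transcribe the defective gene and can be marked by a fluorescent reporter placed in it. Treg of non-lymphoid tissue differ from those of lymphoid organs in activation, in receptors for tissue signals such as IL-33 and in repair factors such as amphiregulin.

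All cells came from 21-day-old male C57BL/6 mice and were sorted with the same gate, live cells positive for TCRβ, CD4, GFP and CD25. The lung ∆Foxp3 libraries are labelled ∆Foxp3.ires.GFP. The spleen ∆Foxp3 libraries are labelled ∆Foxp3.EGFP.iCre X R26.YFP, an allele with a Cre recombinase crossed to a YFP reporter at the Rosa26 locus, although the extraction protocol names ∆Foxp3.ires.GFP for these libraries too. The WT libraries of both tissues are labelled Foxp3.ires.GFP, an intact gene with the GFP reporter. Lungs were perfused and digested with collagenase IV and DNase at body temperature for 35 minutes, followed by negative magnetic enrichment of CD4 cells, whereas spleens were dissociated mechanically. Tissue, digestion and labelled allele therefore cannot be told apart in this comparison. Each library was made from 1000 sorted cells. No label ties a library to a mouse, so every p-value here reflects only how far libraries of a group spread, and that spread may be technical.

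Foxp3 RNA was lower in all 6 ∆Foxp3 libraries than in any WT library. Its level was 159, 114 and 227 CPM (the read count normalised to library size) in spleen ∆Foxp3, 469, 385 and 189 CPM in lung ∆Foxp3, and 991 to 1418 CPM in the WT libraries. The tissue difference in ∆Foxp3 was 1.06 ± 0.28 (log2 fold change of lung minus spleen, with its standard error, here and below), adjusted p = 0.144 (0.0106 with DESeq2 and 0.0566 with limma voom), and lung library 3 lay within the spleen range. The labels do not say which part of the gene is missing, exons of Foxp3 overlap those of Ccdc22 and other genes, and the sources used here do not say whether the counting used strand. The cell identity genes did not pass the test: Cd4 differed by 0.11 ± 0.12, Cd3e by 0.02 ± 0.11, Trbc1 by -0.18 ± 0.13, Trbc2 by -0.11 ± 0.14, Il2ra, the IL-2 receptor chain CD25 of the gate, by 0.22 ± 0.23, Ikzf2 by 0.23 ± 0.17 and Tnfrsf18 by 0.07 ± 0.16. Totals of the 6 libraries ran from 4340611 to 6761537 counts. Lung ∆Foxp3 library 3 had 2.44% mitochondrial counts against 1.42% to 1.60% in the other 5 libraries, and spleen ∆Foxp3 library 2 lay nearest to the lung libraries on the first principal component (-1.80, against -37.2 and -59.9 in the other spleen libraries and 29.0 to 37.1 in lung).

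Of 13295 genes tested, 96 (0.722%) were called at an adjusted p under 0.05, 73 (0.549%) higher and 23 (0.173%) lower in lung. At an unadjusted p under 0.05 there were 1220. The change was over 2-fold in 81 of the 96, and the median over all genes tested was -0.02. In all 96 the lung and spleen libraries did not overlap, which held for 2058 of all genes tested (15.5%). Leaving out a single library moved the count between 42 (without spleen ∆Foxp3 1) and 152 (without spleen WT 1), and dropping lung ∆Foxp3 1, 2 or 3 gave 59, 48 or 43. The number of lower genes moved most: it was 7, 5 and 5 in those fits, 7 without spleen ∆Foxp3 1 and 56 without spleen ∆Foxp3 2, and 81 with DESeq2 and 84 with limma voom, which called 154 and 176 genes higher. Of the 96 calls, 33 passed whichever single library was left out, and those genes are called steady below. Of the 33, 27 also passed under every other setting except the test against a fold of 1.5. Calca was lost with DESeq2 (0.143), and Cdkn1b, Plin2, Socs2, Sytl2 and Gm44292 in the 6 ∆Foxp3 libraries alone with a replicate block (0.053 to 0.0927). Calls that depended on a single library were spread over both genotypes: 53, 47 and 40 of the 96 were still called without lung ∆Foxp3 1, 2 and 3, 41, 68 and 50 without spleen ∆Foxp3 1, 2 and 3, 86, 67 and 76 without lung WT 1, 2 and 3, and 94, 69 and 70 without spleen WT 1, 2 and 3. Exons of 23 called genes overlap another gene, in 21 cases on the opposite strand (Hspa1a, Jun, Junb, Zfp36, Crem, Csf1r and Vcam1 among them), and reads of such partners could not be told apart if strand was not used.

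**Figure D1:**
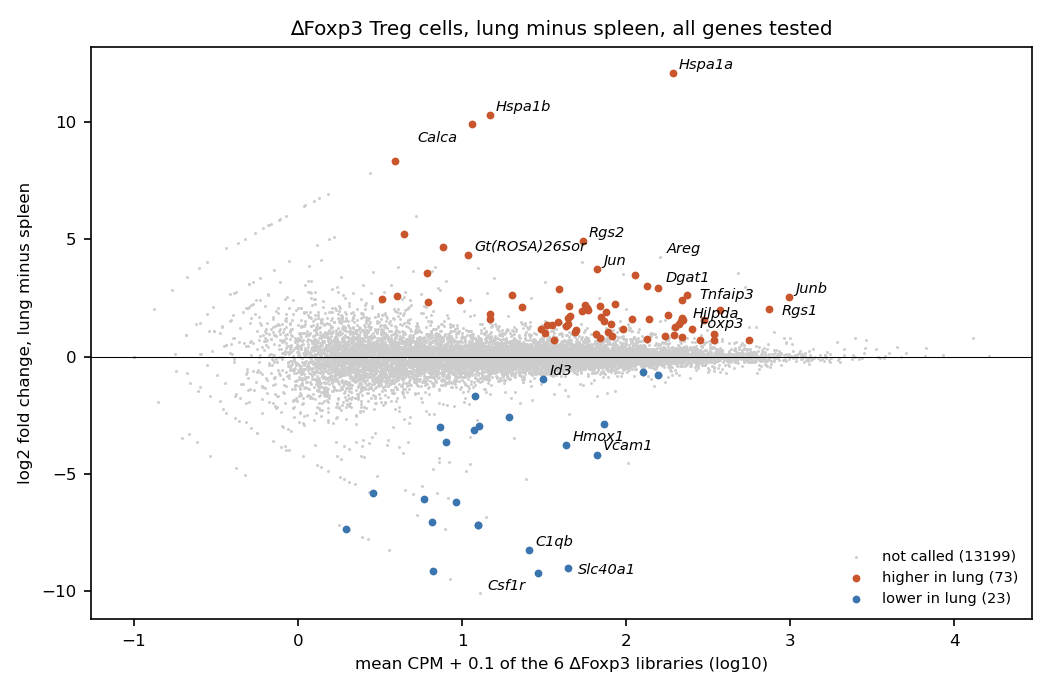
Each point is 1 of the 13295 genes tested, with the mean level of the 6 ∆Foxp3 libraries (CPM + 0.1, log10) on the x axis and the log2 fold change of lung minus spleen on the y axis. The 73 genes called higher in lung are orange and the 23 called lower are blue, with Hspa1a at the top and Csf1r, Spic, Slc40a1 and C1qb the lowest of the called genes, while Foxp3 and Areg are grey.

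The widest gap of all was in a heat shock gene. Hspa1a, an inducible chaperone of the HSP70 family, was at 228, 250 and 676 CPM in lung and at 0.219, 0 and 0 CPM in spleen, where 1 count was found in all 3 libraries together. The pooled ratio was 5987, with an exact 95% counting interval of 1074 to 236500 (adjusted p = 0.000239 in the fit). Hspa1b, its near-identical neighbour on chromosome 17, was at 12.5, 18.6 and 56.5 CPM in lung and had no count in spleen, at least 152-fold higher in lung when 3 counts in the 3 spleen libraries together are taken as the limit (adjusted p = 0.00421). Reads that fit both copies could have been divided or dropped in the counting, so the level of each copy is uncertain. Dnajb1, a co-chaperone of HSP70, was at 263, 280 and 448 CPM in lung and at 116, 120 and 101 CPM in spleen, a difference of 1.56 ± 0.24 (adjusted p = 0.00572). These 3 genes were steady. Hspa4, another HSP70 relative, rose by 1.18 ± 0.25 (adjusted p = 0.0437), but each of 7 libraries ended the call when left out, all 3 of spleen ∆Foxp3 among them (up to 0.184).

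Of the 22 tested members of the heat shock list, 4 were called higher (0.549% of all genes were), none lower, and the median was 0.38, against -0.02 for all genes. In 8 of the 22 the lung libraries lay wholly above the spleen libraries, as in 1073 of all 13295 genes tested. Hsph1 (1.53 ± 0.48), Dnaja1 (0.93 ± 0.26) and Hspa8 (0.61 ± 0.21) had lung libraries wholly above the spleen libraries without passing the test (adjusted p of 0.28, 0.17 and 0.33), and limma voom called Hsph1 (0.0318) and Hspa8 (0.0143). The endoplasmic reticulum chaperone Hspa5 stood at -0.02 ± 0.28. In WT cells, which underwent the same 2 kinds of dissociation, the differences were 6.94 ± 0.76 for Hspa1a, 4.47 ± 0.84 for Hspa1b and 1.16 ± 0.23 for Dnajb1, all called. The part of tissue digestion in these differences was not tested.

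The upstream sequence of the HSP70 pair is shown because both copies had at most 1 count in spleen and a clear level in lung, and those of Jun and Fosl2 because they hold the same letters. Each run is the 250 bases before the RefSeq start site (build GRCm38.p6, read along the gene's strand), and capitals mark a match to the heat shock element GAANNTTC, searched on both strands.
Hspa1a: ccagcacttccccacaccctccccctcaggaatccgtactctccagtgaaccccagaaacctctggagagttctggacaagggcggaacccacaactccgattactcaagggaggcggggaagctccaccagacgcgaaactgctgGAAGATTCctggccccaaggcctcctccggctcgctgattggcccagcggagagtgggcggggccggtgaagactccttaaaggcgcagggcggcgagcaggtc
Hspa1b: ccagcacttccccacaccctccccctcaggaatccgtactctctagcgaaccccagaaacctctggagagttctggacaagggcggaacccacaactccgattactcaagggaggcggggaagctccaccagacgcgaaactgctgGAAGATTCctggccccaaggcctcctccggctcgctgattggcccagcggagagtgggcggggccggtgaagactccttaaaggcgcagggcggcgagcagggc
Jun: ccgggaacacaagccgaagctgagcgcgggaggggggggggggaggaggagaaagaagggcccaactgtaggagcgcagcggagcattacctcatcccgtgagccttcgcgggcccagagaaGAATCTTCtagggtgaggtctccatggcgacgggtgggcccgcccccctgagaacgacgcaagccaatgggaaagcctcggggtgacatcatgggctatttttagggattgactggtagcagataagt
Fosl2: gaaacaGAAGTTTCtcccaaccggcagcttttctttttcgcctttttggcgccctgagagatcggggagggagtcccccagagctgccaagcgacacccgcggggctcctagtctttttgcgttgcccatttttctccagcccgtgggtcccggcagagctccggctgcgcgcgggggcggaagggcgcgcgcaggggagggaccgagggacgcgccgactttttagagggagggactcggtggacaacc
The Hspa1a window is chr17:34972157-34972406 (minus strand) and the Hspa1b window chr17:34959239-34959488 (minus strand). They agree in 247 of 250 bases and hold the match at the same place, from -104 to -97 before the start site. The Jun window is chr4:95052223-95052472 (minus strand), with its match from -128 to -121, and the Fosl2 window chr5:32136222-32136471 (plus strand), with its match from -244 to -237. GENCODE vM21 starts Fosl2 earlier, at chr5:32135801, so by that annotation the Fosl2 window lies within the gene. Among 32851 upstream windows of this length, 6.69% hold the element. It was found in 4 of 51 windows of genes called higher in lung (7.84%), in 475 of 9463 windows of all genes tested (5.02%), and in 3 of the 14 windows of heat shock genes that were not called. These are descriptions of letters, not of bound sites.

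Early response genes, which are transcribed within minutes of stimulation or stress, had the most calls of any list. Of 31 tested, 9 were called higher (0.549% of all genes were), none lower, and the median was 1.66, against -0.02 for all genes. The list was chosen with earlier results of these data known, so its direction is not independent evidence. Fosl2, an AP-1 subunit, was at 55.8, 49.0 and 101 CPM in lung and at 6.78, 13.9 and 7.17 CPM in spleen (2.90 ± 0.42, adjusted p = 0.00403). Junb, another AP-1 subunit, was at 1588, 1540 and 1896 CPM in lung and at 283, 327 and 252 CPM in spleen (2.54 ± 0.38, adjusted p = 0.00819). Jun differed by 3.75 ± 0.72 (adjusted p = 0.0454), at 91.6, 124 and 156 CPM in lung and 15.3, 4.32 and 8.04 CPM in spleen. No library of one tissue overlapped those of the other in these 3 genes.

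Klf6, a zinc finger factor, rose from 90.3, 104 and 121 CPM in spleen to 276, 391 and 336 CPM in lung (1.66 ± 0.19, adjusted p = 0.00051). Gadd45b, a stress-induced activator of MAP kinase signalling, differed by 3.01 ± 0.44 (adjusted p = 0.00756), from 18.8, 51.5 and 18.6 CPM to 170, 196 and 342 CPM. The other calls were Btg2, an antiproliferative gene (1.56 ± 0.22), Zfp36, which speeds decay of cytokine RNA (2.25 ± 0.46), Csrnp1 (1.71 ± 0.35) and the phosphatase Dusp5 (1.37 ± 0.30). Fosl2, Klf6, Gadd45b and Btg2 were steady, whereas Junb reached an adjusted p of 0.0596 without a spleen ∆Foxp3 library (1 or 3), and Jun, Zfp36, Csrnp1 and Dusp5 reached 0.253, 0.214, 0.192 and 0.236 at most when a library was left out, each of the 3 lung ∆Foxp3 libraries among those that ended the call. Several large differences did not pass: Fos (4.02 ± 0.90, adjusted p = 0.0886), Dusp1 (2.95 ± 0.61, 0.0675), Ppp1r15a (3.51 ± 0.73, 0.068) and Nr4a1 (3.55 ± 0.88, 0.147), although in each the lung libraries lay above the spleen libraries, and DESeq2 and limma voom called all 4 (adjusted p of 0.00502 or less and 0.0175 or less). Nr4a1 was at 71.9, 149 and 9.33 CPM in spleen, a wide spread. Egr2 (0.11 ± 0.36) and Myc (0.03 ± 0.22) were close to equal.

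Btg2 and Rgs2 carry cyclic AMP response letters upstream and are shown for that reason, with capitals for the full element TGACGTCA in Btg2 and for the short form TGACGTNN (on the other strand) in Rgs2.
Btg2: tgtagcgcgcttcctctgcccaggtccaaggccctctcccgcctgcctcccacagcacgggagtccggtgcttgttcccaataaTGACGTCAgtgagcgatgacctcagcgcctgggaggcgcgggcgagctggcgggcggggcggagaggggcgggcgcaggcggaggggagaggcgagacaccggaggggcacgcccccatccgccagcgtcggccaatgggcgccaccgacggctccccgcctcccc
Rgs2: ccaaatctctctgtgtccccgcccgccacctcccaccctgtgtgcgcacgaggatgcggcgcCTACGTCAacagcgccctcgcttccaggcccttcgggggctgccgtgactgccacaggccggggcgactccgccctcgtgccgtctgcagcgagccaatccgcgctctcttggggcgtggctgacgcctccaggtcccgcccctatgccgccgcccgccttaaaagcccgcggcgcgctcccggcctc
The Btg2 window is chr1:134079156-134079405 (minus strand), with the match from -166 to -159, and the Rgs2 window chr1:144004150-144004399 (minus strand), with the match from -188 to -181. GENCODE vM21 has Rgs2 reach chr1:144004161, so the bases of its window nearest the start site lie within the gene by that annotation. The full element is in 1.55% and the short form, which includes the full one, in 6.38% of the 32851 windows. The short form was in 7 of 51 windows of genes called higher (13.7%) and in 995 of 9463 windows of all genes tested (10.5%). The full element was in 2 of the 51 (3.92%) and in 265 of the 9463 (2.8%). The AP-1 letters TGANTCA were in 3 of the 51 (5.88%, against 4.01% of tested genes), the box CCAAT in 24 (47.1%, against 37.0%) and the interferon-stimulated element in 1 (1.96%, against 2.67%). Only 51 of the 73 higher genes had a window in the RefSeq table.

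**Figure D2:**
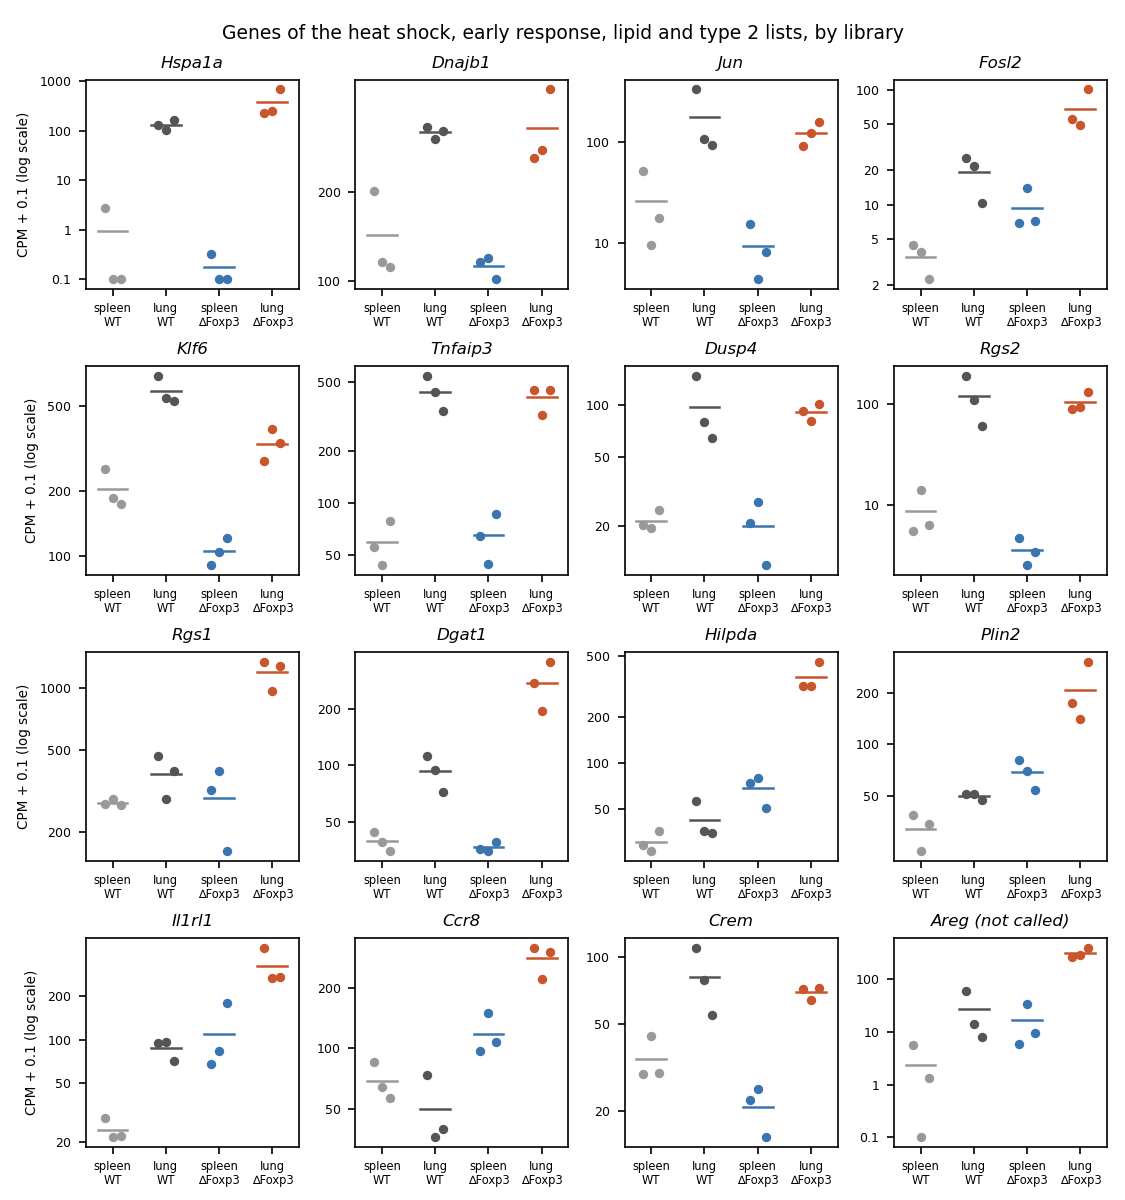
Each panel gives 1 gene, with CPM + 0.1 on a log axis for the 3 libraries (points) and the mean (line) of each group. In lung ∆Foxp3 all 3 points lie above the 3 spleen ∆Foxp3 points in every panel, Areg included, which was not called, and for Hspa1a, Fosl2, Rgs1, Dgat1, Hilpda, Plin2, Il1rl1, Ccr8 and Areg they also lie above all WT points.

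Other steady genes came from several lists or had a wide change. Rgs2, which shortens signalling by G protein-coupled receptors, was at 89.1, 93.6 and 132 CPM in lung and at 4.59, 2.40 and 3.30 CPM in spleen (4.92 ± 0.50, adjusted p = 0.000267). Its relative Rgs1, which dampens chemokine receptor signals and is frequent in tissue-resident T cells, was at 1348, 966 and 1283 CPM in lung and at 320, 396 and 160 CPM in spleen (2.04 ± 0.27, adjusted p = 0.00301). Tnfaip3, which encodes A20, a brake on NF-κB, was at 448, 322 and 448 CPM in lung and at 64.0, 44.4 and 86.4 CPM in spleen (2.64 ± 0.27, adjusted p = 0.000251). Dusp4, a phosphatase that inactivates MAP kinases, differed by 2.22 ± 0.32 (adjusted p = 0.00421), and Socs2, a suppressor of cytokine signalling, by 1.16 ± 0.19 (adjusted p = 0.008). Pim3, a kinase induced by cytokines, was at 43.1, 29.7 and 31.1 CPM in lung and at 4.37, 6.23 and 6.03 CPM in spleen (2.63 ± 0.40, adjusted p = 0.00572). 

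Of 26 tested genes of the NF-κB list, 3 were called higher (0.549% of all genes were) and none lower, with a range of 1 to 6 higher over the alternatives (median 0.44). Besides Tnfaip3 these were Nfkbiz (1.37 ± 0.28, adjusted p = 0.0377) and Nfkbid (0.98 ± 0.21, adjusted p = 0.046), nuclear regulators of NF-κB target genes, which lost the call without any of several single libraries (adjusted p up to 0.174 and 0.213). Rel, an NF-κB subunit, stood at 1.57 ± 0.35 (adjusted p = 0.0697), and Nfkbia at 1.06 ± 0.28 (adjusted p = 0.152), and DESeq2 (0.00057 and 0.0178) and limma voom (0.00782 and 0.0192) called both. Crem, a cyclic AMP responsive factor, was at 71.8, 64.0 and 72.6 CPM in lung and at 22.3, 25.2 and 15.1 CPM in spleen (1.75 ± 0.27, adjusted p = 0.00694, steady). Pde4b, which degrades cyclic AMP, rose by 0.87 ± 0.17 (adjusted p = 0.0279, up to 0.148 without spleen ∆Foxp3 1 or 2 or lung ∆Foxp3 1 or 3). Cdkn1b, the cell cycle inhibitor p27, was at 110, 111 and 93.8 CPM in lung and at 50.3, 48.7 and 52.8 CPM in spleen (1.05 ± 0.14, adjusted p = 0.00301, steady). Lmna, which encodes lamin A, differed by 3.5 ± 0.51 (adjusted p = 0.00796), from 10.9, 28.1 and 16.5 CPM to 72.5, 226 and 326 CPM, and stood at 0.0596 without spleen ∆Foxp3 3. Of 36 tested genes of T cell receptor signalling only Cd28, the co-stimulatory receptor, was called (0.72 ± 0.15, adjusted p = 0.0423, up to 0.20 when a library was left out). Over all genes 0.549% were called higher, so 1 call says little about this list.

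A set of 3 genes of lipid droplets, the stores of neutral fat in cells, was called higher in lung (0.549% of all genes were). Dgat1, which makes triglyceride from diacylglycerol, had the smallest p of all genes: it was at 274, 193 and 355 CPM in lung and at 35.6, 34.8 and 39.0 CPM in spleen (2.91 ± 0.23, adjusted p = 2.78e-05). Hilpda, a droplet protein that inhibits triglyceride breakdown and is induced by low oxygen, was at 321, 322 and 462 CPM in lung and at 74.3, 80.1 and 50.2 CPM in spleen (2.44 ± 0.24, adjusted p = 0.000139). Plin2, which coats droplets, was at 176, 140 and 306 CPM in lung and at 81.3, 69.5 and 54.1 CPM in spleen (1.60 ± 0.26, adjusted p = 0.00902). All 3 were steady. The remaining 22 of 25 tested genes of lipid uptake and storage were not called and the list's median was 0.01: the fatty acid carrier Fabp5 stood at -0.15 ± 0.36, the transporter of fatty acids into mitochondria Cpt1a at 0.01 ± 0.17, Fasn at -0.37 ± 0.32 and Dgat2 at 0.96 ± 0.55. Of 29 tested genes of glycolysis and hypoxia, Hilpda alone was called (0.549% of all genes were called higher), and the median of the 29 was -0.07.

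Among genes of type 2 helper and tissue Treg cells, 3 of 18 and 2 of 34 tested were called, all higher (0.549% of all genes were). Limma voom called 6 and 8 of them, and over the alternatives the higher calls ran from 1 to 6 and from 0 to 8. Il1rl1, the IL-33 receptor ST2, was at 425, 263 and 269 CPM in lung and at 68.4, 83.9 and 177 CPM in spleen (1.53 ± 0.31, adjusted p = 0.0377). Ccr8, a chemokine receptor of tissue Treg and Th2 cells, was at 316, 221 and 303 CPM in lung and at 96.8, 151 and 108 CPM in spleen (1.24 ± 0.26, adjusted p = 0.0468). Neither was steady: leaving out a single library gave adjusted p-values up to 0.129 for Il1rl1 and 0.221 for Ccr8, each of the 3 lung ∆Foxp3 libraries among them. The third gene of the type 2 list was Crem. Areg, which encodes the repair factor amphiregulin, was at 255, 279 and 385 CPM in lung and at 5.68, 33.8 and 9.47 CPM in spleen, 4.26 ± 0.94, and did not pass the test in edgeR (adjusted p = 0.0886, 0.0737 to 0.319 in 11 of 12 fits without a library and 0.0348 without lung WT 1). Areg passed with DESeq2 (0.0266), limma voom (0.000387), dispersion without the robust option (0.0223), the ∆Foxp3 libraries alone (0.0223, or 0.00953 with the replicate block) and without spleen WT 1, lung WT 1 and lung ∆Foxp3 3 together (0.0409), at 3.89 to 5.31 in all settings. Gata3, the type 2 master regulator, stood at 0.63 ± 0.24 (adjusted p = 0.415, and 0.288 with DESeq2 and 0.0126 with limma voom), with spleen libraries at 440, 1059 and 722 CPM.

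None of 19 tested T helper cytokines was called by edgeR (0.722% of all genes were), and the median of the 19 was 0.46. At an unadjusted p under 0.05 there were 4, DESeq2 called 2 and limma voom 5. In lung Il4 was at 154, 95.2 and 126 CPM, Il5 at 64.6, 52.1 and 229 CPM and Il13 at 18.5, 23.0 and 45.6 CPM. In spleen Il4 was at 19.0, 110 and 34.3 CPM, Il5 at 1.31, 52.3 and 8.75 CPM and Il13 at 1.09, 24.4 and 1.15 CPM. Spleen library 2 held the highest spleen value of all 3 cytokines and lay within the lung range for each. Il10 stood at 1.40 ± 0.54 (adjusted p = 0.429) and Ifng at 2.50 ± 0.64 (adjusted p = 0.12), which DESeq2 called too (0.00712), and limma voom called both (0.00333 and 0.0175). Calca, which encodes the neuropeptide CGRP and calcitonin and belongs to no list, was at 34.4, 12.5 and 21.4 CPM in lung and had no count in spleen, at least 117-fold higher (adjusted p = 0.0115). Its WT levels were 1.29, 0 and 0 CPM in lung and 0 in spleen.

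Of 30 tested genes of the Treg signature, 4 were called higher (0.549% of all genes were) and none lower, and the median was 0.50. DESeq2 called 8 and limma voom 9 of them, in both directions together, and the higher calls ran from 2 to 8 over the alternatives. They were Rgs1, Dusp4, Socs2 and Capg, an actin-capping protein (0.70 ± 0.15, adjusted p = 0.0495, up to 0.224 when a library was left out). Ctla4, the inhibitory receptor, was at 609, 427 and 407 CPM in lung and at 265, 285 and 316 CPM in spleen (0.74 ± 0.17, adjusted p = 0.0699), and Tigit at 305, 320 and 313 CPM in lung and at 572, 348 and 590 CPM in spleen (-0.69 ± 0.18, adjusted p = 0.122). DESeq2 called both (0.00947 and 0.023), as did limma voom (0.0214 and 0.0141). Of 16 cytotoxic genes tested, 2 were called higher (0.549% of all genes were). They were Ctsw, a cathepsin of cytotoxic cells (0.91 ± 0.16, adjusted p = 0.018), and Klrk1, the NKG2D receptor (4.67 ± 0.99, adjusted p = 0.0461). Klrk1 was at 5.08, 22.8 and 15.4 CPM in lung and at 0.656, 0.959 and 0.143 CPM in spleen, and its adjusted p reached 0.26 when a library was left out (any of spleen ∆Foxp3, lung ∆Foxp3 2 or 3, or spleen WT 2). Ctsw lost the call without spleen ∆Foxp3 1 or lung ∆Foxp3 1 or 2 (up to 0.0753). Cd44, an adhesion receptor of activated T cells, rose by 0.96 ± 0.16 (adjusted p = 0.011), lost only without lung ∆Foxp3 3 (0.0754). Fgl2, a secreted suppressor protein of Treg, was at 901, 540 and 345 CPM in lung and at 136, 115 and 196 CPM in spleen (2.00 ± 0.37, adjusted p = 0.0319, up to 0.124 when a library was left out). Fgl2 was chosen after its values were seen.

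**Figure D3:**
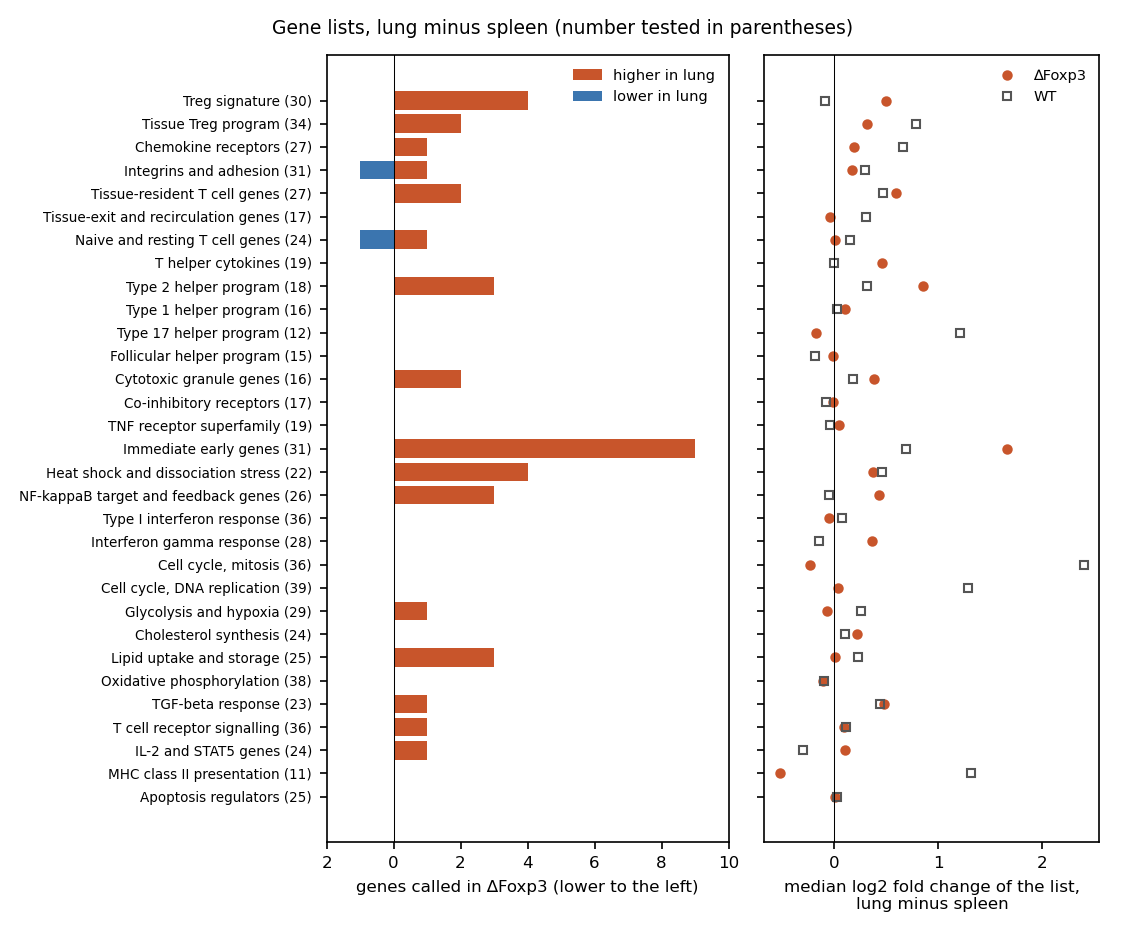
For each of 31 gene lists (number of tested members in parentheses) the left panel counts the genes called higher (orange, to the right) or lower (blue, to the left) in lung ∆Foxp3, and the right panel gives the median log2 fold change of lung minus spleen in ∆Foxp3 (circles) and in WT (squares). Early response genes have 9 calls and the highest ∆Foxp3 median, 1.66, and mitosis genes have none, with a median of -0.23 in ∆Foxp3 and 2.41 in WT.

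Macrophage genes were lower in lung. Slc40a1, the iron exporter ferroportin of iron-recycling macrophages, was at 127, 29.7 and 106 CPM in spleen and at 0, 0 and 0.447 CPM in lung, a pooled ratio of 637 with a counting interval of 176 to 5261 (adjusted p = 0.00152). Csf1r, the receptor for the macrophage growth factor, was at 110, 13.2 and 49.9 CPM in spleen and had 1 count in lung (ratio 799, interval 143 to 31580, adjusted p = 0.00902). C1qa and C1qb, complement components made by macrophages, had ratios of 166 (45.7 to 1377) and 357 (98.4 to 2950), and Mrc1, the mannose receptor, one of 170 (46.8 to 1410). Spic, the factor that specifies red pulp macrophages, had 206 counts in spleen and none in lung, at least 60.5-fold lower in lung. Vcam1 (-4.18 ± 0.75) and Hmox1, which breaks down haem (-3.78 ± 0.70), were also called. In each of these 8 genes spleen library 1 was highest and spleen library 2 lowest.

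Of the macrophage markers, 8 of 16 tested were called lower (0.173% of all genes were), none higher, and the median was -4.67. Summed over the 23 markers the level was 363 to 1161 CPM in spleen ∆Foxp3, 201 to 264 CPM in lung ∆Foxp3, 411 to 706 CPM in spleen WT and 269 to 558 CPM in lung WT. Ctss had the highest mean of the 23 over the 12 libraries. Cd14, Spic and Marco had no count in any lung ∆Foxp3 library, and Lyz1 had none in any spleen ∆Foxp3 library. Slc40a1 alone of the macrophage genes was steady: leaving out any of the 3 lung ∆Foxp3 libraries ended the calls of Csf1r (up to 0.103), C1qa (0.0962), C1qb (0.312), Mrc1 (0.141), Adgre1 (0.0927), Spic (0.15), Vcam1 (0.181) and Hmox1 (0.0986). The sorted cells were gated on T cell proteins, and the part of macrophage RNA or of cells bound to Treg was not tested. In bulk libraries fewer cells of a type and less RNA per cell cannot be told apart.

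**Figure D4:**
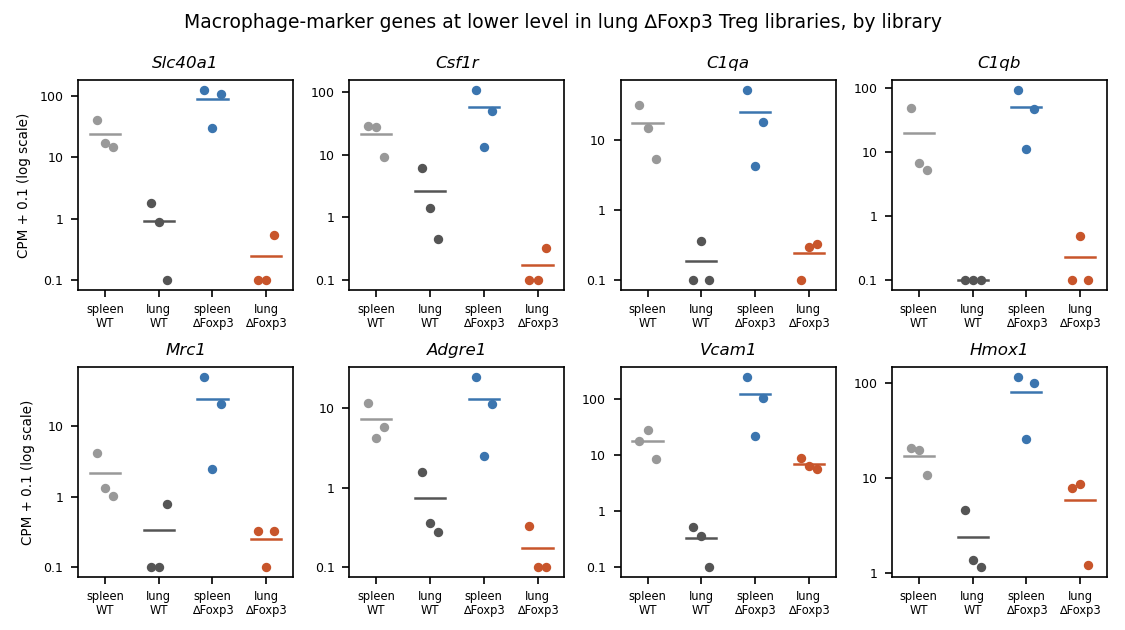
Each panel gives 1 macrophage gene, with CPM + 0.1 on a log axis for the 3 libraries (points) and the mean (line) of each group. The 3 spleen ∆Foxp3 points lie above the 3 lung ∆Foxp3 points in all 8 panels, and the WT spleen points lie above the WT lung points as well.

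The 10 other marker lists, with 48 tested genes in all, had no call by edgeR in either direction (0.722% of all genes were called). So few tested genes may hold no call at that share alone, and markers under the low-count filter could not be called. DESeq2 called 3 of the 48 and limma voom 1, and 10 had an unadjusted p under 0.05 (1220 of all 13295 genes did). Summed markers were 79.8 to 163 CPM in spleen and 136 to 266 CPM in lung for B and plasma cells, 119 to 205 and 129 to 329 CPM for NK and innate lymphoid cells, 87.4 to 164 and 86.1 to 108 CPM for dendritic cells, 1.92 to 6.46 and 1.62 to 6.15 CPM for neutrophils, and 16.5 to 31.6 and 25.8 to 37.4 CPM for lung epithelium. Over the 12 libraries the marker with the highest mean was Ighm, Gzma, Bst2, Mmp9 and Epcam in these lists, in that order. Ebf1 and Mzb1 of the B and plasma cell list had no count in any ∆Foxp3 library. The surfactant genes Sftpc and Sftpa1 had no count in spleen. Erythroid and platelet markers spread from 16.3 to 522 CPM in spleen and from 3.77 to 411 CPM in lung, so their range was wide in both tissues.

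Apart from macrophage genes, few named genes were lower in lung. Id3, an inhibitor of E protein factors that marks resting T and Treg cells, was at 21.2, 22.0 and 19.9 CPM in lung and at 42.8, 47.2 and 33.6 CPM in spleen (-0.96 ± 0.17, adjusted p = 0.0154). Slc39a1, a zinc transporter, fell by 0.81 ± 0.17, Twf1, an actin regulator, by 0.67 ± 0.14 and Pex11g, a peroxisome protein, by 1.68 ± 0.36, with adjusted p-values of 0.0377, 0.0446 and 0.0468. None of these 4 was steady, with adjusted p-values up to 0.103, 0.222, 0.24 and 0.219 when a library was left out, each lung ∆Foxp3 library and spleen ∆Foxp3 1 among those that ended the call.

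Gt(ROSA)26Sor, the noncoding RNA of the Rosa26 locus (mm10 chr6:113067428-113077333, minus strand), is the gene that the spleen ∆Foxp3 label names as carrying the YFP reporter. It was at 1.09, 0.479 and 1.29 CPM in spleen ∆Foxp3 and at 23.1, 19.8 and 18.8 CPM in lung ∆Foxp3 (4.33 ± 0.42, adjusted p = 0.000139, steady). In WT the order was the opposite, 74.4, 61.6 and 40.6 CPM in spleen and 7.54, 15 and 16.4 CPM in lung (-2.18, called). Spleen ∆Foxp3 libraries thus lay below all 9 others. Its exons overlap those of Thumpd3 on the other strand, which was at 111 to 174 CPM in spleen ∆Foxp3 and 110 to 144 CPM in lung ∆Foxp3 (-0.13 ± 0.18). Of 199 other tested genes within 20 Mb of this locus, 7 were called (3.52%, against 0.722% of all genes), of which 5, Gm15987, BC064078, Clec2g, Clec2i and Klrk1, lie 15.8 to 16.5 Mb away. This window was chosen after the values were seen. Clec2i, Klrk1 and Wnk1 were higher in lung, and Gm15987, BC064078, Clec2g and Clec4n lower. Gm15987 lies within the span of Clec2g, with BC064078 beside it, so these calls need not be separate. Clec4n was also called lower in lung in WT (-8.17, adjusted p = 0.00701). It was at 21.2, 3.84 and 8.90 CPM in spleen ∆Foxp3, highest in library 1 and lowest in library 2, as were the macrophage genes above.

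Gm15987, an antisense RNA, was at 14.2, 15.6 and 24.0 CPM in spleen ∆Foxp3, at 0.231, 0 and 0.447 CPM in lung ∆Foxp3 and on average at 1.84 and 4.90 CPM in the spleen and lung WT groups. BC064078, annotated as an unprocessed pseudogene, was at 38.0, 24.2 and 36.7 CPM in spleen ∆Foxp3 and at 3.23, 5.75 and 7.59 CPM in lung ∆Foxp3 (-2.57 ± 0.37, adjusted p = 0.00403). Elsewhere in the genome the processed pseudogene Gm13456 was at 90.3, 106 and 192 CPM in spleen ∆Foxp3 and at 19.6, 16.6 and 16.8 CPM in lung ∆Foxp3 (-2.88 ± 0.27, adjusted p = 0.000139), with WT means of 15.3 and 14.3 CPM. These 3 and the processed pseudogene Gm5869 (-2.98 ± 0.46) were steady, and the labelled allele, which differs between the 2 groups, cannot be told apart from tissue in them. The multi-mapping setting of the counting was not given, so counts of the pseudogenes may include reads of similar genes.

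Many programs showed no call in ∆Foxp3. By edgeR 0.722% of all genes were called, so lists as short as these may hold none at that share alone. None of 36 tested mitosis genes and none of 39 DNA replication genes was called by edgeR, with medians of -0.23 and 0.04. DESeq2 and limma voom called none of them either, and 2 mitosis genes and no replication gene had an unadjusted p under 0.05. Mki67, a marker of cycling cells, was at 320, 279 and 261 CPM in spleen and at 194, 286 and 254 CPM in lung. Top2a was at 617, 771 and 267 CPM in spleen and at 527, 685 and 528 CPM in lung. None of 36 type I interferon genes, 28 interferon gamma response genes, 38 oxidative phosphorylation genes, 24 cholesterol synthesis genes, 25 apoptosis regulators, 19 TNF receptor family genes or 17 co-inhibitory receptors was called, nor any of 17 genes of tissue exit, such as S1pr1 (-0.30 ± 0.20) and Ccr7 (0.26 ± 0.45). Th1, Th17 and follicular helper programs (16, 12 and 15 tested) also had none. Of the interferon gamma response genes 8 had an unadjusted p under 0.05, and limma voom called 4 of them and DESeq2 1. The other lists named so far in this paragraph had at most 4 genes at that p, at most 3 calls by limma voom and at most 2 by DESeq2. All 11 tested genes of MHC class II presentation had negative differences (median -0.52) without a call, H2-Aa among them (-1.96 ± 1.16). Among 27 chemokine receptors Ccr8 alone was called, among 31 adhesion genes Cd44 and, lower, Vcam1, among 23 TGF-β response genes Tgif1 (1.64 ± 0.27, lost without spleen ∆Foxp3 3), and among 24 genes of the IL-2 and STAT5 list Socs2. In that order these lists had 5, 7, 7 and 5 genes at an unadjusted p under 0.05. DESeq2 called 2, 3, 5 and 3 of their genes and limma voom 2, 2, 3 and 4. Over all genes edgeR called 0.549% higher and 0.173% lower, so a single call says little about a list of this size. Of 27 genes of tissue-resident T cells Rgs1 and Rgs2 were called higher (0.549% of all genes were), and the early activation marker Cd69 was not called (0.80 ± 0.27, adjusted p = 0.323). The median of this list was 0.60, and 23 of the 27 differences were positive. In 12 of the 27 the lung libraries lay wholly above the spleen libraries, as in 1073 of all 13295 genes. At an unadjusted p under 0.05 there were 11 (1220 of all genes), and DESeq2 called 5 and limma voom 7.

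The same tissue comparison in WT Treg, which shares no library with the ∆Foxp3 one, gave 549 calls (4.13%), 412 higher and 137 lower in lung. With library totals in place of scaling factors it gave 371 higher and 260 lower, and it gave 320 calls without spleen WT 2, 325 without lung WT 2 and 281 without lung WT 3. Of the 96 ∆Foxp3 calls 43 were also called in WT (44.8% of the ∆Foxp3 calls and 7.83% of the WT calls), 32 higher in lung in both genotypes, 9 lower in both and 2, Btg2 and Gt(ROSA)26Sor, in opposite directions. Tnfaip3 rose by 2.89 ± 0.27 in WT, Dusp4 by 2.19 ± 0.32, Rgs2 by 3.86 ± 0.45, Klf6 by 1.52 ± 0.19 and Fosl2 by 2.46 ± 0.44, and the difference between genotypes did not pass for these 5 (adjusted p of 0.704 or more). The interaction of Rgs2 was 1.06 ± 0.63, so its ∆Foxp3 and WT values need not be alike. Slc40a1 fell in WT by 4.89 on the log2 scale, and C1qa and C1qb were called lower in WT lung too, with 1 and 0 counts in all lung WT libraries together.

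**Figure D5:**
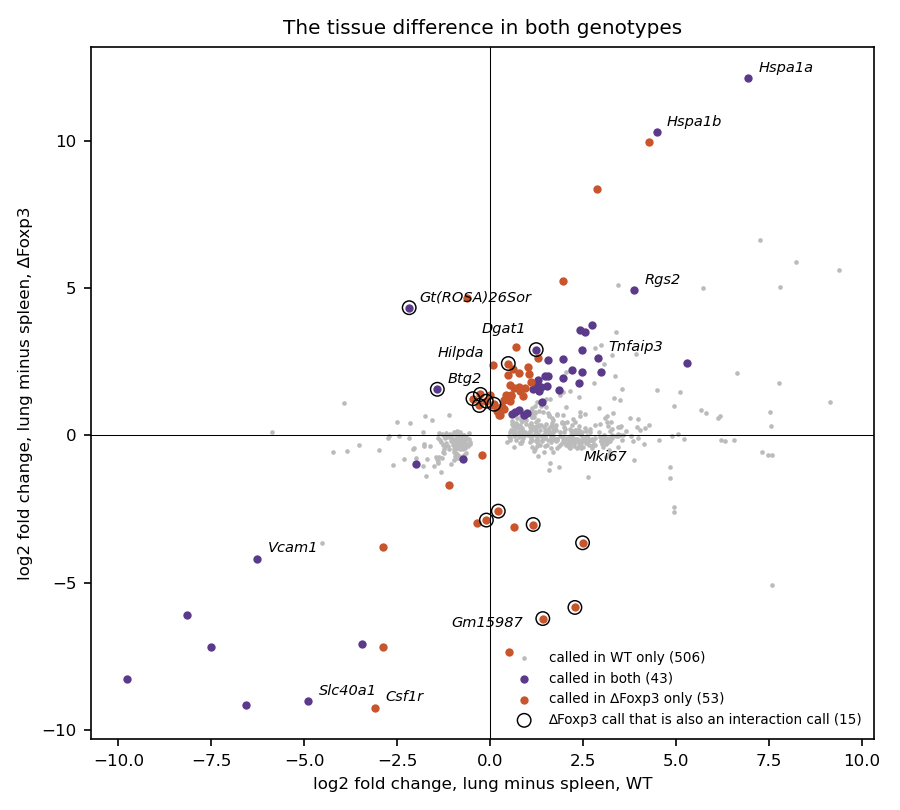
Each point is a gene called in at least 1 genotype, with the log2 fold change of lung minus spleen in WT on the x axis and in ∆Foxp3 on the y axis. The 43 genes called in both (purple) lie mostly on a rising diagonal, most of the 506 called in WT only (grey) lie near 0 on the y axis, the 53 called in ∆Foxp3 only are orange, and the circled 15 are ∆Foxp3 calls whose difference from WT also passed.

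The test of the difference between the ∆Foxp3 and WT tissue comparisons (interaction) called 123 genes (0.925%), 19 with a higher and 104 with a lower signed value in ∆Foxp3. Of these, 106 were called in WT, 15 were among the 96 ∆Foxp3 calls and 5 were in neither. The count was 36, 69 and 54 without lung ∆Foxp3 1, 2 and 3, 49 without spleen ∆Foxp3 1, 72 without spleen WT 2, and 68 and 52 without lung WT 2 and 3. The labelled allele differs between tissues in ∆Foxp3 but not in WT. In every interaction here and below, that difference therefore cannot be told apart from the loss of Foxp3. Hilpda differed by 2.44 in ∆Foxp3 and by 0.49 ± 0.24 in WT, an interaction of 1.95 ± 0.33 (adjusted p = 0.0121), and Dgat1 by 2.91 in ∆Foxp3 and 1.24 ± 0.22 in WT, an interaction of 1.67 ± 0.30 (adjusted p = 0.0166, up to 0.0603 without spleen ∆Foxp3 1, lung ∆Foxp3 1 or 3, or lung WT 2 or 3). Btg2 was higher in lung in ∆Foxp3 and lower in WT, where it was at 744, 645 and 633 CPM in spleen and at 359, 205 and 191 CPM in lung (interaction 2.98, adjusted p = 0.000496). Cdkn1b and Socs2 were close to equal in WT (0.10 ± 0.14 and -0.11 ± 0.18), with interactions of 0.96 ± 0.20 (adjusted p = 0.0357) and 1.26 ± 0.26 (adjusted p = 0.0338). Ccr8 stood at 1.71 in the interaction (adjusted p = 0.0486). These last 3 genes reached adjusted p-values of 0.122, 0.106 and 0.157 when a library was left out, and each was lost without any of at least 9 of the 12 libraries.

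Proliferation genes were among those with a lower signed value in ∆Foxp3. Of 36 mitosis genes 31 were higher in lung in WT and 20 had a lower value in ∆Foxp3 by the interaction test, and of 39 DNA replication genes 25 and 8 did so. Over all 13295 genes tested, 412 were called higher in lung in WT and 104 had a lower value in ∆Foxp3 by the interaction test. Mki67 was at 43.2, 11.6 and 31.3 CPM in spleen WT and at 139, 117 and 166 CPM in lung WT (2.28 ± 0.34), against 194 to 320 CPM in all 6 ∆Foxp3 libraries (interaction -2.50 ± 0.46, adjusted p = 0.021). Ncapg2, a condensin subunit, was at 91.4 to 134 CPM in the ∆Foxp3 libraries of both tissues and on average at 4.36 and 36.4 CPM in spleen and lung WT (interaction -3.28, adjusted p = 0.00149). The mitotic motor Kif4 differed by 0.04 ± 0.40 in ∆Foxp3 and by 5.06 ± 0.58 in WT (interaction -5.02, adjusted p = 0.00521).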

How the data were processed

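RNA of sorted Treg was counted by Smart-seq2 in 12 libraries, 3 for each pair of tissue (lung or spleen) and genotype (∆Foxp3 or WT), taken from the labels. The table the authors deposited holds raw read counts by gene symbol, made, per the submitters' processing notes, on the build mm10 with featureCounts of Subread 2.0.0 after STAR 2.7.3a. Annotation, strand and multi-mapping settings were not given in the sources used here. Per the labels' protocols, 18 cycles of PCR and paired 38 nt reads were used, with no molecular identifiers named, so the intervals and limits given cover only the error of counting.

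The deposited counts were tested as they stood in edgeR 4.0.16 under R 4.3.3 by its quasi-likelihood F test, with TMM factors, robust dispersion and the default low-count filter by group. One fit held all 12 libraries with group as the only term, and the contrasts were lung minus spleen in ∆Foxp3, the same in WT, and their difference. The p-values, which are two-sided, were adjusted by Benjamini-Hochberg over the 13295 genes tested, and a call is an adjusted p under 0.05. Levels are TMM-scaled CPM. With 1 to 3 counts in a group the fold is the ratio of summed counts, with an exact Clopper-Pearson interval (95%), and with none it is a bound that takes 3 counts for the group. On simulated counts the test recovered 52 of 100 genes changed 2-fold and 89 of 100 changed 4-fold, with 11 false calls among 152 (12807 genes). The changed genes were drawn only from those at 10 CPM or more. Apart from the changes set, each gene had the same rate in every library, with no outlying library, so recovery in the real libraries may be lower.

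The comparison, the 42 gene lists (31 programs and 11 sets of markers) and the genes were chosen with earlier results of these data known. Named genes were, in each direction, up to 15 with the widest change among calls with a mean of 10 CPM or more and groups that do not overlap, without predicted genes, pseudogenes and receptor segments. Also named were up to 4 called members of each list (else its most abundant), the Foxp3, Il2ra, Cd4, Cd3e, Trbc1 and Trbc2 genes, and the 6 smallest adjusted p and 6 largest further changes of the interaction. Other genes in the text were chosen after their values were seen. Positions are from GENCODE vM21 (mm10), in which all 96 called symbols matched, and upstream sequences from RefSeq (GRCm38.p6). The first entry of a gene was used.

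Alternatives were other scaling factors (RLE, upper quartile, library totals), no low-count filter, DESeq2 1.42.0, a minimum of 10 CPM in 3 libraries, limma 3.58.1 voom with quality weights, testing against a fold of 1.5, dispersion without the robust option, only the ∆Foxp3 libraries, the replicate number as a block, leaving out mitochondrial, ribosomal and receptor genes or Gm10800 and Gm10801, omitting each library in turn, and thinning all libraries to equal totals. Dropping the first WT library of each tissue together with lung ∆Foxp3 3 was added after seeing the data.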

Additional observations from a re-analysis of the deposited data

Results flagged for a closer look

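Results are given here when the test of the difference between the ∆Foxp3 and WT tissue comparisons passed at an adjusted p under 0.05. In all, 123 genes passed. Values are signed, as the ∆Foxp3 lung minus spleen difference less the WT one. The labelled allele differs between tissues in ∆Foxp3 only, so these values cannot tell it apart from the loss of Foxp3. Among the genes followed, the signed value was higher in ∆Foxp3 for Gt(ROSA)26Sor by 6.51 (log2, adjusted p = 5.54e-05), for Egr2 by 5.97 (0.000758), for Ctse by 3.66 (0.000496), for Btg2 by 2.98 (0.000496), for Hilpda by 1.95 (0.0121), for Ccr8 by 1.71 (0.0486), for Dgat1 by 1.67 (0.0166), for Kdm6b by 1.65 (0.046), for Clec2i by 1.30 (0.0496), for Socs2 by 1.26 (0.0338) and for Cdkn1b by 0.96 (0.0357). For Egr2, an early response factor, and Ctse, an aspartic protease, this came with close to equal levels in both ∆Foxp3 groups (0.11 ± 0.36 and -0.57 ± 0.26) and lower lung levels in WT (-5.86 ± 0.54 and -4.23 ± 0.29).

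The values of Clec2g rest on 1 lung ∆Foxp3 count and WT levels of at most 1.08 CPM. The signed value was lower in ∆Foxp3, with interactions of -8.12 for Clec2g (adjusted p = 0.046), -6.13 for Lrp1 (0.0121), -5.92 for Lad1 (0.00454), -5.02 for Kif4 (0.00521), -4.42 for Esco2 (0.0121), -4.18 for Plxnb2 (0.0387), -4.03 for Cip2a (0.0307), -3.90 for Exo1 (0.0347), -3.87 for Cenpf (0.0387), -3.28 for Ncapg2 (0.00149) and -2.84 for Yod1 (0.000645). In Lad1, which encodes ladinin, and the cell cycle genes among them the WT lung libraries were above the WT spleen libraries, while the ∆Foxp3 groups did not differ by a called amount. For Clec2g, Lrp1 and Plxnb2 the ∆Foxp3 difference was the larger in size and was called lower in lung (-5.84, -3.65 and -3.03), while the WT difference was positive and not called (2.28, 2.48 and 1.16). Groups of 3 libraries were not searched for single outlying values.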

How the results depend on the processing

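The ∆Foxp3 count of 96 was 292 with no low-count filter, 235 with DESeq2, 260 with limma voom and 38 in the test against a fold of 1.5, and ran from 42 to 152 when a single library was left out. The WT count of 549 was 957, 1046, 1064 and 235 under these 4 settings and ran from 281 to 693, and the interaction count of 123 was 363, 304, 219 and 50 and ran from 36 to 178. DESeq2 shared 95 of the 96 ∆Foxp3 calls, limma voom 86 and the unfiltered fit 86. The cause of these shifts was not tested. Every other setting left each count within 1.5 times, except the replicate block below. All 96 ∆Foxp3 calls kept their direction in every alternative that gave a value.

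Same-numbered lung and spleen ∆Foxp3 libraries did not deviate together (correlations over genes of 0.04, 0.09 and 0.02), and no label says what a number shares. With the replicate block the ∆Foxp3 count was 83, of which 73 were among the 96, the WT count 511 and the interaction count 74, and with the block in the 6 ∆Foxp3 libraries alone the ∆Foxp3 count was 92. Without spleen WT 1, lung WT 1 and lung ∆Foxp3 3 there were 88 calls, 58 of them shared. Calls of early response genes ran from 4 to 14, of heat shock genes from 3 to 7, of lipid genes from 2 to 3 and of macrophage markers from 1 to 9. The limit that a count of 0 allows (3 counts) was 0.431 to 0.719 CPM in the 6 libraries, and differences between levels under it were not detectable at this depth.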
